A study of Bos taurus with 90 samples.

Results

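The 100 genes described here were those whose expression in single bovine oocytes had the most negative rank correlation with the diameter of the follicle. For each of 27 oocytes, read counts were converted to counts per 1000000 reads assigned to genes (CPM). Of the 27270 genes in the count table, 8463 had a mean of at least 10 CPM in these oocytes. The 100 with the lowest Spearman's rho between CPM and follicle diameter in mm were taken as the members. The oocyte values themselves chose the members, so their fall in these oocytes is a description, not a tested finding. Their values in the other 2 cell types of the same follicles did not enter the choice.

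Antral follicles of Bos taurus cows, taken from slaughterhouse ovaries, were separated into mural granulosa cells (MGCs, which line the follicle wall), cumulus cells (CCs, which surround the oocyte) and the oocyte. The 90 libraries came from 30 follicles in 3 size classes, without any treatment, and the sources used here give neither the age of the cows nor which follicles shared a cow. The methods of the study state that the follicles of each class came from several cows and were collected in several batches. The labels do not name a batch. After the follicles of oocytes OS70702, OM71804 and OM71001 (titles as in the labels, with O for oocyte, C for CC or G for MGC, then S, M or L for size) were left out by the selection rule, 9 oocytes from small follicles (3.1 to 3.8 mm), 8 from medium follicles (6.2 to 7.0 mm) and 10 from large follicles (9.6 to 11.6 mm) remained. One oocyte per follicle and its CC pool were amplified with SMART-seq2, whereas MGC libraries were standard bulk libraries made from extracted RNA.

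In an antral follicle the oocyte is held at the germinal vesicle stage and completes its growth while the follicle around it continues to enlarge. Transcription is active during growth and is progressively silenced in the fully grown oocyte, which then relies on stored maternal mRNA until the embryonic genome is activated. CCs and oocyte exchange small molecules through gap junctions, and CC projections cross the zona pellucida to reach the oocyte surface. MGCs lie apart from this complex and produce oestradiol under gonadotropin control.

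Total counts of the 27 oocytes ranged from 8442938 to 53173320, and between 10588 and 16641 genes had a count. Diameter had a rho of -0.18 with the total count and of 0.18 with the number of genes with a count. It had a rho of -0.49 with the share of counts taken by the 50 highest genes of each library. The median of that share was 17.6% in oocytes of the small class, 14.5% in the medium class and 14.8% in the large class. The mean level of the members had a rho of 0.62 with this share over the 27 oocytes. Only 4 members were ever among those 50 genes, and the part of this share in the members' fall was not tested. CPM is a share of the library, so a lower amount of a transcript and a larger amount of all others cannot be told apart. A set of 315 genes that were high in granulosa cells and low in oocytes, chosen on these libraries, summed to 182 to 490 CPM in the 27 oocytes and to 22177 to 52065 CPM in the CC pools.

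The members' rho ranged from -0.809 to -0.591, with a median of -0.626. Over all 8463 genes the median was 0.084, and 40.6% of genes were below 0. At the limit of the selection, the members at ranks 98 to 100 each had a rho of -0.591, and the genes at ranks 101 to 103 had -0.590, -0.589 and -0.588. There was thus no gap in rho between the last members and the genes that followed. When the 27 diameters were permuted 100 times among the oocytes, the rho at rank 100 was between -0.543 and -0.347, with a median of -0.412. The number of genes at or below the limit of the real selection was then between 0 and 53, with a median of 3. None of the 100 permutations brought 100 genes to that limit. The lowest rho of a single gene in a permutation had a median of -0.647, which is lower than that of the median member.

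The lowest rho belonged to ENSBTAG00000023218, which had 108 CPM in the lowest, 146 in the median and 181 in the highest of the 9 oocytes from small follicles. In the 8 oocytes from medium follicles the same values were 83.7, 103 and 114 CPM. In the 10 oocytes from large follicles they were 66.4, 93.6 and 107 CPM. The small and large groups did not overlap, although they were separated only by the small oocyte at 108 and the large oocyte at 107 CPM. The medium group overlapped with both. The group means were 141 ± 27.1 (SD, n = 9), 102 ± 8.76 (n = 8) and 88.8 ± 13.6 CPM (n = 10), and the fitted slope was -0.10 log2 units per mm (SE 0.02).

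For ENSBTAG00000002012, which ranked next, the lowest, median and highest values were 83.0, 100 and 138 CPM in oocytes from small follicles. They were 46.1, 84.1 and 94.7 CPM in medium and 39.8, 56.8 and 72.5 CPM in large follicles. The gap between the small and large groups was wider than for ENSBTAG00000023218, at 83.0 against 72.5 CPM. Among the oocytes from medium follicles, whose highest lay within the small group, the 2 lowest had 46.1 and 48.3 CPM, within the range of the large group, and the other 6 had 76.1 CPM or more. Its slope was -0.13 log2 units per mm (SE 0.02). Gene symbols could not be assigned to the identifiers, so the function of the members is not described.

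**Figure D1:**
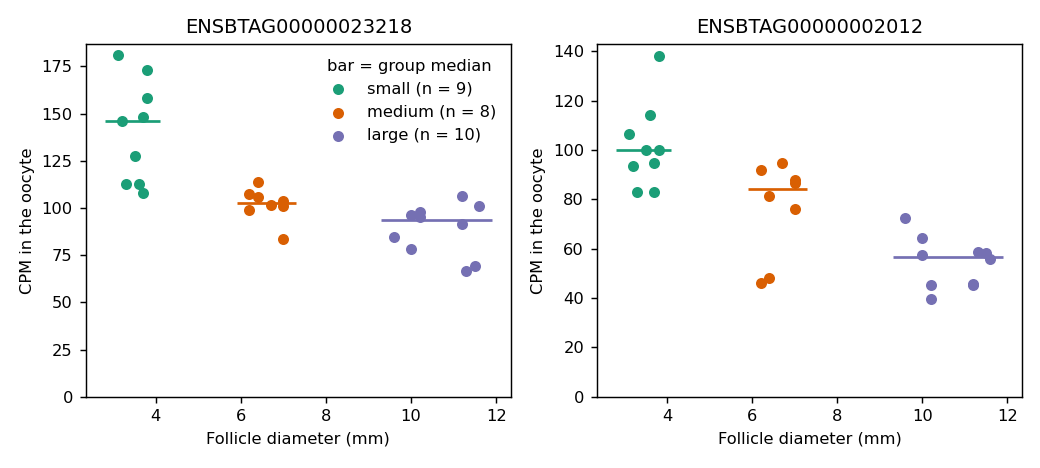
CPM (linear axis from 0) of the 2 members with the lowest rho against follicle diameter (mm), 1 point per oocyte and a bar at each group's median. For both genes every small-follicle oocyte lies above every large-follicle oocyte, and the medium group overlaps both of the other groups.

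The fall was moderate in size for most members. The median CPM of oocytes from small follicles exceeded that of large follicles by 1.18-fold to 3.403-fold, with a median of 1.64-fold. It was at least 2-fold in 15 members and under 1.5-fold in 23. From small to medium follicles the median fold was 1.33, and from medium to large it was 1.23. In 98 members the 3 group medians followed the order small, medium, large, and the larger of both steps was from small to medium in 61 members and from medium to large in 39. All small-follicle oocytes lay above all large-follicle oocytes in 5 members, at ranks 1, 2, 12, 13 and 26, where 0.0709% of the 8463 genes (6 genes) had this property. For the other 95 members the small and large groups overlapped. The fall was therefore seen in group medians more than as a clean separation of single oocytes.

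Members also differed in how far single oocytes departed from their group. The member with the largest fold, at rank 99, was low, with medians of 15.3, 12.6 and 4.50 CPM from small to large follicles. In oocytes from small follicles it ranged from 8.27 to 31.7 CPM and in large follicles from 2.90 to 12.7 CPM, so that the groups overlapped. The member at rank 14 had the next largest fold, 3.09, with medians of 436, 184 and 141 CPM. Its values spread over 160 to 2418 CPM within the small group alone, so that the lowest small-follicle oocyte lay close to the large-follicle median. The member at rank 16 had medians of 62.5, 39.7 and 21.9 CPM and a fold of 2.86. The member at rank 62 had medians of 561, 401 and 241 CPM and a fold of 2.33. The 12 members with the lowest rho had folds of 1.36 to 2.42, so the larger folds of the members at ranks 99, 14 and 16 were not among them. Within size classes, the SD of the members' log2(CPM + 1) had a median of 0.33, against 0.54 for all 8463 genes. The rule favours genes of low spread, and nothing is read from this difference.

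Counts assigned to the members were higher than those of the other genes with at least 10 CPM. Their mean oocyte CPM ranged from 10.5 to 3771 with a median of 141, against 48.4 for all 8463 genes, and 64 members reached 100 CPM where 28.3% of all genes did. CPM is not scaled by transcript length, so these are numbers of reads and not of molecules. The rule used these same oocyte values and favours genes of low spread, so nothing is read from this difference in level. A count was present in all 27 oocytes for 99 members. The member with most reads, at rank 63, had medians of 4538, 3606 and 3132 CPM in small, medium and large follicles. The next, at rank 24, had 2241, 1897 and 1545 CPM. The sum over the 100 members had a lowest, median and highest value of 22382, 32588 and 39900 CPM in small follicles. It was 18530, 24058 and 28547 CPM in medium and 16242, 19249 and 26158 CPM in large follicles.

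**Figure D2:**
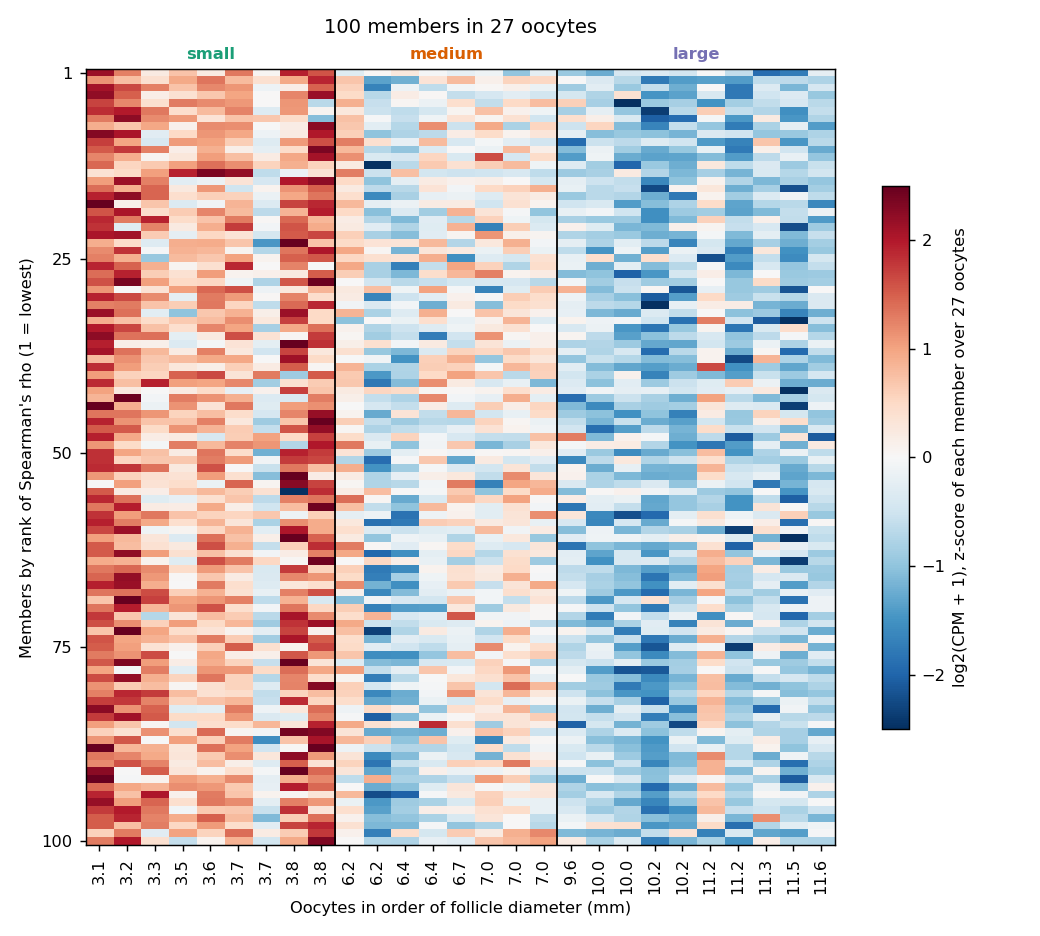
The 100 members in order of rank (vertical axis) in the 27 oocytes in order of follicle diameter in mm (horizontal axis), coloured by z-score of log2(CPM + 1) over the oocytes, with colours capped at 2.5 and black lines between size classes. Small-follicle oocytes are mostly red and large-follicle oocytes mostly blue, while 1 of the small oocytes at 3.7 mm and 1 of the large oocytes at 11.2 mm stand closer to the medium group.

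The mean log2(CPM + 1) over the 100 members was 7.37 ± 0.24 (SD, n = 9) in small, 6.92 ± 0.20 (n = 8) in medium and 6.62 ± 0.17 (n = 10) in large follicles. Over the 8463 genes, the group medians of this mean went the other way, from 5.53 to 5.77 and 5.76. Single oocytes departed from the order of the groups. Oocyte OS70701 (3.7 mm) had a member mean of 6.87, below the median of the medium group, while the other 8 small-follicle oocytes had 7.19 or more. Oocyte OL50505 (11.2 mm) had 6.99, while the other 9 large-follicle oocytes had 6.39 to 6.75.

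The fall was seen between size classes and not within each of them. Within the small class, which spans 3.1 to 3.8 mm, the members' rho with diameter had a median of -0.13, and 63 members were below 0, where 50.5% of the 8463 genes were. Within the medium class the median was 0.23 and 27 members were below 0 (50.8% of all genes). Within the large class it was 0.04 and 46 members were below 0 (52.7% of all genes). Diameters within a class spanned no more than 2.0 mm, in 8 to 10 oocytes. Within classes the members nevertheless varied together. After each class mean was removed, Pearson's r between pairs of members over the 27 oocytes had a median of 0.35, and 89.1% of pairs were above 0. Over all pairs of the 8463 genes the median was 0.02 and 52.8% were above 0. Members chosen on the same 27 libraries share depth, library composition and the order of the oocytes, so this is a description. Among the genes that were no members, the 3 whose CPM was most like the mean rank of the members had a rho of 0.892, 0.889 and 0.881 with it over the 27 oocytes. They stood at ranks 115, 151 and 123 by their rho with diameter.

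The first 3 digits of the follicle numbers in the labels, whose meaning is not stated, were spread unevenly over the size classes. When ranks were centred within these prefixes, the members' rho had a median of -0.54 and was below 0 in 100 of 100, against 42.8% of all genes. Of the resulting lowest 100 genes, however, 44 were members. In the prefix shared by OS70501, OL70503 and OL70504, 100 members were lower in the large follicles (40.2% of all genes). This prefix also holds the medium oocyte OM70502, which is in none of the counts given here. Its member mean was 6.66 log2(CPM + 1), against 7.55 in OS70501, 6.60 in OL70503 and 6.64 in OL70504. In that of OS50501, OS50502, OS50506 and OL50505, 95 were lower in the large follicle (44.4% of all genes). In that of OS70701 and OL70703, 88 were lower (48.1% of all genes). From medium to large follicles, 93 members were lower in the prefix of OM71805, OL71801 and OL71802 (49.3% of all genes) but 41 in that of OM72104, OL72101 and OL72102 (52.1% of all genes). From small to medium follicles, 90 members were lower in the prefix of OS71701 and OM71704, where 38.2% of all genes were. In the comparisons listed, members were mostly lower in the larger follicle, except from medium to large in the prefix of OM72104. The letters of the library names followed the size classes, apart from names beginning with W, so name letter and class cannot be told apart. In the 1 small and 1 large oocyte whose names begin with W, 87 members were lower in the large follicle, where 42.3% of all genes were. The median log2 difference was 0.31 in this pair and 0.76 between the other 8 small and 9 large oocytes. The values within prefixes and in this pair come from the oocytes that chose the members. They are a description, not a separate test of the fall.

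A linear trend of expression with diameter was fitted to the counts of all genes with edgeR's quasi-likelihood test. Here 2.25% of the 12491 genes tested (281 genes) were lower at larger diameter at an adjusted p under 0.05, and 95 of the 100 members were among them. The rule used the same contrast, and nothing is read from this count. The members' slopes ranged from -0.35 to -0.06 log2 units per mm with a median of -0.11. With the prefix as a covariate, no gene passed in either direction, with 540 genes at an unadjusted p under 0.05, and 83 members lower at that level, where 2.61% of all genes were. With all 30 follicles, edgeR likewise called no gene, with 780 at an unadjusted p under 0.05. DESeq2 was not run on either of these fits.

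The 3 oocytes left out by the rule differed from their size classes in many genes. OS70702 (3.7 mm), with 14567 genes with a count, had a member mean of 6.67, below all 9 other small-follicle oocytes. Of the members, 55 lay below the range of the small group there, where 11.2% of the 8463 genes did. OM71804 (7.0 mm) had counts for 6770 genes and OM71001 (7.1 mm) for 9524 genes. In OM71804 the member mean was 6.85, 57 members lay above the range of the medium group (25.7% of all genes) and 24 below it (55.6%), and 9 had no count (35.2%). In OM71001 the member mean was 4.61, 74 members lay below the range of the medium group (53.1% of all genes) and 10 above it (27.2%), and 14 had no count (16.3%).

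The first comparison outside the rule asks whether the members followed follicle size in the CCs of the same follicles. The CC pool CS70701, with counts for 1066 genes, was left out in addition, so 26 pools remained. ENSBTAG00000023218 had lowest, median and highest values of 137, 179 and 419 CPM in the 8 small-follicle pools. They were 66.5, 171 and 243 CPM in the 8 medium pools and 58.9, 116 and 176 CPM in the 10 large pools. The groups overlapped, and the pool CS71701 was the highest of all at 419 CPM. The slope was -0.14 log2 units per mm (SE 0.05), and edgeR's adjusted p was 0.0455. Without CS50501 the adjusted p was 0.133, and over all 34 alternatives it ranged from 0.0161 to 0.685. ENSBTAG00000002012 had 151, 218 and 709 CPM in small pools, 78.5, 203 and 269 in medium pools and 109, 135 and 207 in large pools. Its slope was also -0.14 (SE 0.05), with an adjusted p of 0.0629 and a range of 0.0275 to 0.752 over the alternatives.

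Of the 100 members, 87 had enough counts in CCs to be tested. In CCs 5.06% of the 11474 genes tested were lower at larger diameter by edgeR, and 33 of the 87 members were. The genes tested, here and in MGCs, include genes under 10 CPM in oocytes, from which no member was drawn. No member was called higher, where 3.35% of all genes were, and 0 were higher at an unadjusted p under 0.05. DESeq2 called 42 lower, where it called 9.53% of all genes, and 0 higher, where it called 6.57%. The median slope was -0.14 log2 units per mm against 0.00 for all genes, and 87 of 87 members had a slope below 0, where 48.6% of all genes did. Members that passed include the one at rank 65, with a slope of -0.23 (SE 0.05), and the one at rank 62, with -0.28 (SE 0.06). Spearman's rho in CCs needed no filter on counts. Its median over the 100 members was -0.31, against 0.01 over all genes, and it was below 0 in 90 members, where 48.9% of all genes were below 0.

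These calls rested on single CC pools. Without CS50501, edgeR called none of the 87 members, with 39 lower at an unadjusted p under 0.05 against 10.4% of the 11444 genes tested. Of those genes 0.14% were still called lower. Without CS71701, 7 members were called lower, where 1.30% of all genes were. Leaving out CL71802, CL70503, CL72102, CL62802, CL70703, CL62803 or CL71801 gave between 13 and 21 called members, where 2.01% to 4.08% of all genes were called lower. Leaving out CL50505 gave 53, where 9.54% of all genes were called lower. Without CS50501 and CS71701 together, a choice made after their values were seen, edgeR called no member, where 0.0438% of the 11403 genes were called lower. At an unadjusted p under 0.05, 7 members were lower (4.18% of all genes), and the median slope was -0.03, with 76 of 87 below 0. Spearman's rho, which ranks the pools, had a median of -0.27 in these 24 pools and was below 0 in 88 of 100 members, but 61.4% of all genes were then below 0. With the prefix as a covariate no member was called (0.113% of all genes), 4 were lower at an unadjusted p under 0.05 (8.21% of all genes), and 64 of 87 slopes were below 0. With CS70701 included none was called and 17 were lower at an unadjusted p under 0.05, where 3.13% of all genes were.

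**Figure D3:**
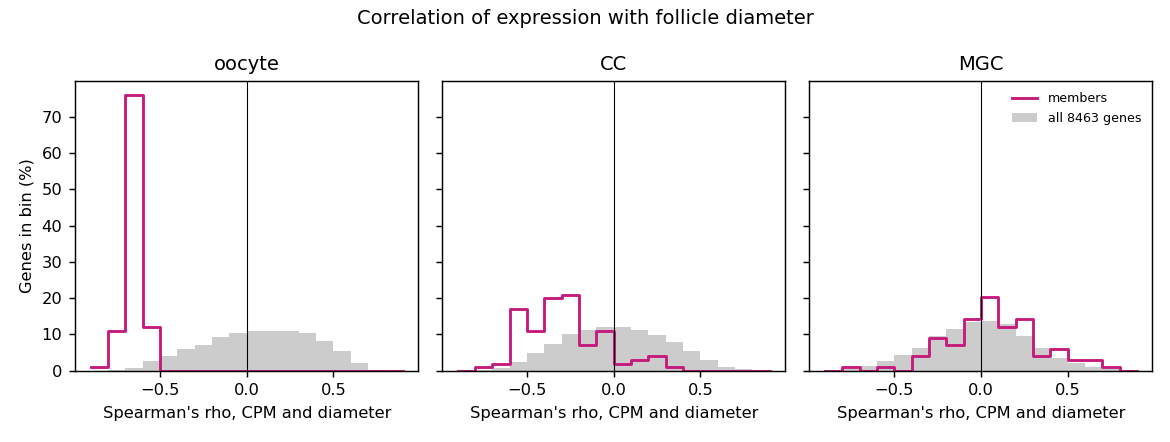
Distribution of Spearman's rho between CPM and diameter in bins of 0.1 (horizontal axis) as a percentage of genes (vertical axis) in 27 oocytes, 26 CC pools and 27 MGC samples, for the members (line) and all genes with at least 10 CPM in oocytes (grey bars). The oocyte values chose the members. In CCs 90 of 100 members lie below 0, and in MGCs 36 of 99 do.

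Both of these pools held more transcripts that MGCs hardly contain than any other of the 26 pools. A set of 393 genes with at least 10 CPM in oocytes and under 0.1 CPM in MGCs, chosen on these libraries and holding 6 members, summed to 5536 CPM in CS50501 and to 345 CPM in CS71701. In the other 6 small-follicle pools the sum was at most 92.1 CPM, and it was 42.0 to 137 CPM in medium and 27.2 to 98.4 CPM in large pools. CS71701 had the highest member mean of all CC pools, 6.56 log2(CPM + 1), and CS50501 had 6.10. The medium pool CM62201 lay between them at 6.12, with 131 CPM of the 393 genes. The other 6 small-follicle pools had 5.51 to 5.94. The 315 genes high in granulosa cells summed to 22177 CPM in CS50501 and to 26185 CPM in CS71701, and to 33241 CPM or more in medium and large pools. The part of these transcripts in the members' trend in CCs was not tested. The TMM factors, computed over CC pools with CS70701 included, were lowest in CS50501 (0.415) and CS71701 (0.559). A low factor raises a pool's values in the fit above its CPM. With DESeq2's size factors in edgeR, 34 members were called lower, where 6.23% of all genes were. How far the scaling of these pools sets the slopes in CCs was not tested. In pools of CCs, a different mix of cells and a different amount of RNA per cell cannot be told apart.

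**Figure D4:**
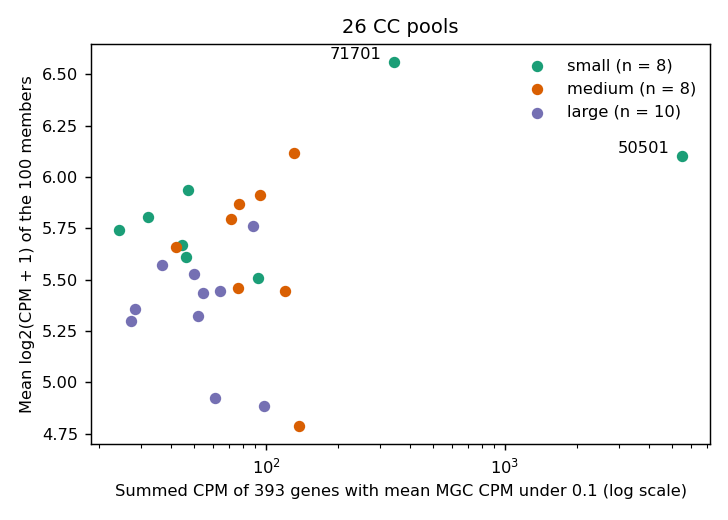
Mean log2(CPM + 1) of the 100 members (vertical axis) against the summed CPM of 393 genes that were nearly absent from MGCs (horizontal axis, log scale) in 26 CC pools, coloured by size class. CS50501 and CS71701 lie to the right of the others, at 5536 and 345 CPM, and CS71701 is the highest on the vertical axis.

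The members were also divided by their level in oocytes and CCs. Of 71 members whose mean CPM differed by less than 4-fold between these cells, a class that holds 61.6% of all genes, 68 had a rho below 0 in CCs, with a median of -0.33. Of 26 members over 4-fold higher in oocytes (32.1% of all genes), 19 had a rho below 0, with a median of -0.24. All 3 members over 4-fold higher in CCs (6.29% of all genes) had a rho below 0, with a median of -0.60. Over all genes, the medians of these classes were -0.00, 0.02 and 0.02 in the same order.

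In MGCs most members were not called in either direction. ENSBTAG00000023218 had lowest, median and highest values of 37.4, 73.1 and 118 CPM in 9 small-follicle samples. They were 82.1, 109 and 144 CPM in 8 medium and 57.5, 93.9 and 149 CPM in 10 large samples. The ranges of the groups overlapped widely, and the slope was 0.03 log2 units per mm (SE 0.03) with an edgeR adjusted p of 0.599. With the prefix as a covariate the slope was 0.09 and the adjusted p was 0.0236, the lowest of 33 alternatives, of which the highest was 0.839. ENSBTAG00000002012 had medians of 63.6, 63.4 and 50.8 CPM from small to large, with a slope of -0.02 (SE 0.03) and an adjusted p of 0.735.

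Among the 89 members tested in MGCs, edgeR called 2 lower at larger diameter, where 4.88% of the 12614 genes were called lower, and 4 higher, where 4.09% were. Both shares are near the background. The median slope was 0.01 log2 units per mm against -0.00 for all genes, and rho was below 0 in 36 of the 99 members with a count, where 49.96% of all genes were. The median rho was 0.08 over the members and 0 over all genes. The 4 members called higher stood at ranks 80, 27, 40 and 55, with slopes of 0.09, 0.11, 0.10 and 0.07. The 2 called lower stood at ranks 29 and 10, with slopes of -0.18 and -0.10. The member at rank 29 had a mean of 1.51 CPM in MGCs, against 51.6 CPM in oocytes. Without GL50505 or GL70504, 1 member was called higher (3.60% and 3.29% of all genes), and without GS50506, 2 were (3.72%). The number called lower was 1 or 2 whichever follicle was left out. With the prefix as a covariate 29 members were called higher, where 11.1% of all genes were, and 3 lower, where 9.43% were. The difference between the slopes in CCs and in MGCs was not tested.

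**Figure D5:**
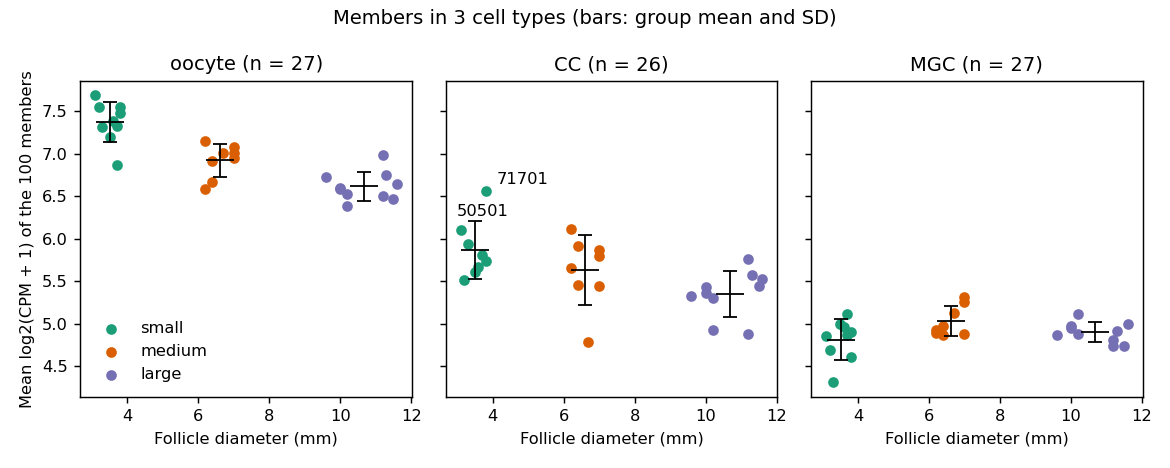
Mean log2(CPM + 1) of the 100 members (vertical axis) against follicle diameter in mm (horizontal axis), 1 point per library, in oocytes, CC pools and MGC samples, with the mean and SD of each size class. The members stand at 7.37, 6.92 and 6.62 in oocytes and at 5.87, 5.63 and 5.35 in CCs, and at 4.81, 5.03 and 4.90 in MGCs.

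The mean level of the members by library was lower in CCs than in oocytes and lowest in MGCs. The rule set a minimum level in oocytes only, so nothing is read from the higher level there. In CCs it was 5.87 ± 0.34 (SD, n = 8), 5.63 ± 0.41 (n = 8) and 5.35 ± 0.27 (n = 10) from small to large follicles, and the ranges of all groups overlapped. In MGCs it was 4.81 ± 0.24 (n = 9), 5.03 ± 0.18 (n = 8) and 4.90 ± 0.12 (n = 10). The mean CPM of single members in CCs ranged from 0.0044 to 4541, and 84 reached 10 CPM, where 72.0% of the 8463 genes did. In MGCs 85 reached 10 CPM, where 75.2% of all genes did. The members' median was 141 CPM in oocytes, 75.9 in CCs and 35.7 in MGCs. Over the 8463 genes it was 48.4, 26.6 and 29.7 CPM in the same order. Most members were also detected in the granulosa cells.

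Levels in oocyte and CC of the same 26 follicles were compared with edgeR, calling genes at an adjusted p under 0.05 and over 2-fold. Of the members, 33 were higher in the oocyte, where 35.2% of the 14130 genes tested were, and 24 were higher in CCs, where 35.9% were. Among tested genes with at least 10 CPM in oocytes, from which the members were drawn, 41.6% were higher in oocytes and 21.5% in CCs. For ENSBTAG00000023218 the oocyte-minus-CC difference was -1.10 log2 units (SE 0.19, edgeR adjusted p 6.89e-07). Its mean CPM was 110 in oocytes and 157 in CCs, which is less than 2-fold. The fit scaled libraries by TMM and CPM does not, so fitted differences and CPM are not on the same scale. The call was lost, with a difference under 2-fold, with the follicle as a block (-0.90), without a filter on low counts (-0.88) and without follicle OS71701 (-0.95). ENSBTAG00000002012 was higher in CCs, with -2.04 (SE 0.22, adjusted p 9.71e-13), and with the follicle as a block the difference was -1.84. At the other end, the members at ranks 63 and 24, which had most reads in oocytes, had means of 0.59 and 0.29 CPM in CCs. Rank 63 had 0.0063 CPM in MGCs and rank 24 was listed at 0 there. The member at rank 26 had 49.98 CPM in oocytes, 0.037 in CCs and 35.7 in MGCs. The member at rank 58 had 820 CPM in oocytes, 4541 in CCs and 9898 in MGCs. Oocytes and CC pools were amplified with different numbers of cycles, and how far this sets the differences was not tested.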

How the data were processed

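The authors deposited 1 table of raw gene counts, whole numbers for 27270 Ensembl gene identifiers in 90 libraries. The submitters' processing notes name HISAT2 2.2.1 and featureCounts (Subread) with the ARS-UCD1.2 genome, whereas the methods of the study name STAR with uniquely mapping reads. Which aligner made the table was not settled. CPM was computed from column totals, and the selection was repeated under the alternatives given below. The members and tests were chosen with earlier results of these data known. Trends were fitted on deposited counts with edgeR 4.0.16 (R 4.3.3, TMM, quasi-likelihood test, diameter in mm), keeping genes with over 1 CPM in at least 15 libraries of the fit, and Benjamini-Hochberg adjusted p-values over all genes tested. DESeq2 1.42.0 was an alternative. Correlations used Python 3.11.15 with scipy 1.17.1. Scripts were tested on simulated data. The identifiers named are the 2 members of lowest rho. Gene lists, cell type markers and sequence features fixed in the plan were not run, because 0 entries of the gene table used here carry an Ensembl identifier. Oocyte and CC libraries came from the same follicle. For each of 26 follicles, the log2(CPM + 1) of each gene was set against the mean of its cell type over all size classes. Across the 8463 genes, these deviations in oocyte and CC had correlations of -0.17 to 0.43, above 0.1 in 18 follicles. Size class was not removed, so trends with size that both cell types share enter these values. The fit with follicle as a block is given below. Counts per library cover sampling of reads only, and amplification duplicates were not marked by molecular identifiers.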

Additional observations from a re-analysis of the deposited data

Results flagged for a closer look

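A value far from the others was looked for in 36 sets, each a single measure in a group of 8 to 10 libraries. Such a value was found in 3 sets, and chance gives about 1 in 20. The same libraries enter several sets, so the sets are not independent. The summed CPM of the 393 genes nearly absent from MGCs was 5536 in the CC pool CS50501, far above the next of the 8 small-follicle pools, 345. ENSBTAG00000023218 was at 419 CPM in the CC pool CS71701, against 199.95 CPM in the nearest small-follicle pool. ENSBTAG00000002012 was at 709 CPM in the same pool, against 251 CPM in the nearest.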

How the results depend on the processing

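Of the 100 members, 44 were among the lowest 100 with ranks centred within the prefix, 40 with the share of the 50 highest genes regressed out (added after seeing the data), 73 with DESeq2's size factors or with all 30 follicles, 89 with TMM, and 69 to 97 without 1 follicle. Over all genes, the oocyte trend gave 557 lower and 431 higher by DESeq2, 792 and 727 without a filter, 494 and 361 for small against large, 0 and 0 with the prefix covariate or all 30 follicles, and 44 to 554 and 19 to 383 without 1 follicle. In CCs, members called lower numbered 0 with the prefix covariate, with CS70701 or without CS50501 and CS71701 (added), 19 with all 29 follicles (3.25% of all genes), and 0 to 53 without 1 follicle (0.14% to 9.54%). The slope of ENSBTAG00000023218 in CCs stayed negative but lost its call in 21 of 34 alternatives. In MGCs, 29 members were called higher with the prefix covariate (11.1% of all genes) and 1 for small against large (3.35%). Members called lower numbered 1 without a filter (4.68% of all genes) or for small against large (4.14%). Without 1 follicle, 1 to 4 were called higher (3.11% to 4.58% of all genes) and 1 to 2 lower (3.63% to 5%). For oocyte against CC, the fit with follicle as a replicate block called 38 members higher in oocytes (36.5% of all genes) and 17 higher in CCs (35.6%), and 32 to 36 and 19 to 24 were called without 1 follicle (35.0% to 35.6% and 35.4% to 36.0% of all genes). For the 2 named identifiers, no slope or difference changed its sign among the alternatives where it was called. For the other members, signs were not followed gene by gene. In MGCs, 34 of 89 members had a slope below 0 in the main fit and 20 with the prefix covariate. The causes were not tested. With 8 to 10 follicles per class and no record of which shared a cow, p-values cover the spread between these follicles.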
